A study of Xenopus tropicalis with 52 samples.

Results

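Wnt and BMP signaling were lost together in the embryos described here. The 3 libraries of Wnt/BMP LOF (loss of function) were compared with the 3 control libraries of the same stage, stage 9+ or late blastula. These are 6 of the 52 samples of the series, and the effects are described across the 16001 genes whose exon counts were high enough to test. All embryos were wild-type Xenopus tropicalis of the out-bred Nigerian strain. Wnt/BMP LOF embryos had received 5 ng of morpholino (MO), a synthetic oligonucleotide that here blocks translation of β-catenin, at the animal pole of the zygote, and were kept from the 8-cell stage in 10 µM LDN193189, a small molecule that inhibits BMP type I receptors. Controls had no injection and were cultured in DMSO, the solvent of the inhibitor, so an effect of the injection and an effect of the MO cannot be told apart. Wnt LOF (the MO without the inhibitor) and BMP LOF (the inhibitor without the MO), each with 3 libraries, enter below where the double loss is set beside its parts. Each library was made from poly(A) RNA of 10 to 15 whole embryos, and the labels of the replicates spell the number of the inhibitor differently although the methods of the study name a single compound.

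In the frog blastula, maternal β-catenin enters nuclei on the dorsal side and turns on a small set of early genes, among them the siamois homeobox genes and nodal3, from which the Spemann organizer is built. The organizer secretes antagonists such as Chordin and Noggin, which bind BMP ligands and keep BMP signaling low dorsally, while BMP signaling elsewhere turns on ventral and epidermal genes such as the ventx homeobox genes and sizzled (szl). Zygotic wnt8a later signals through the same β-catenin in the ventral and lateral margin, so the MO removes the means of both Wnt inputs.

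Exon counts per library came to 38338999, 32182862 and 33485759 in Wnt/BMP LOF and to 32716602, 40895797 and 33889636 in the control, in the order of replicates 1, 2 and 3, which is kept for every set of 3 values below. Levels are given as CPM, exon counts scaled to a common library size with TMM factors, where 1 CPM stood for 30.7 to 40.6 counts in these libraries. A gene was called lower or higher at an edgeR adjusted p (Benjamini-Hochberg) of at most 0.1. Counts of genes that fell or rose are counts of such calls. The libraries numbered 1 stood apart from the others. Mesoderm and endoderm transcription factors (the 15 genes taken up below) summed to 1125 CPM in Wnt/BMP LOF replicate 1 against 2786 and 2647 in replicates 2 and 3, and to 6049 CPM in control replicate 1 against 4979 and 4102. For the 1854 genes that RNA polymerase II first covers at the midblastula transition (MBT), the sums were 253469, 261189 and 265113 CPM in Wnt/BMP LOF and 301317, 275804 and 258156 CPM in the control. Control replicate 1 was thus highest and Wnt/BMP LOF replicate 1 lowest in both measures, and the part of this in the results was not tested. Libraries with the same number also deviated together, so the values with the replicate number as a block are given where they change a call. Markers of germ cells gave summed levels of 414 to 434 CPM in Wnt/BMP LOF and 411 to 468 CPM in the control, and those of ectoderm 3491 to 4343 against 3234 to 4865 CPM. RNA of both kinds was thus present in both groups, which does not count cells. In whole embryos, fewer cells of a type and less RNA per cell cannot be told apart.

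The double loss lowered far more genes than it raised. In Wnt/BMP LOF 279 genes were called (1.74% of those tested), of which 229 fell (1.43%) and 50 rose (0.312%), and the median log2 fold change was -1.72 among the genes that fell and 0.47 among those that rose, against 0.0018 over all genes. Falls were also the deeper: 109 of the 229 genes fell at least 4-fold, while only 7 of the 50 rose at least 2-fold. All 279 genes had the same direction in the 3 pairs of libraries with the same number, which the call itself makes likely. Every Wnt/BMP LOF library lay below every control library in 5.69% of all genes tested, among them 228 of the called genes. With the replicate block 1214 genes were called (7.59%), 814 lower (5.09%) and 400 higher (2.5%), and all 279 genes were among them. DESeq2, without the block, called 482 genes. A fit of these 6 libraries alone called 20 genes, and with the block 6. Without replicate 1 the counts were 150 lower and 48 higher, and without replicate 3 they were 163 and 76. Without replicate 2 they dropped to 10 lower and 1 higher, and of the lists by function only that of secreted organizer proteins then held calls (3 genes). Among single libraries, leaving out Wnt/BMP LOF replicate 1 gave 123 calls, Wnt/BMP LOF replicate 2 gave 174 and control replicate 1 gave 142, and the other libraries 197 to 341.

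**Figure D1:**
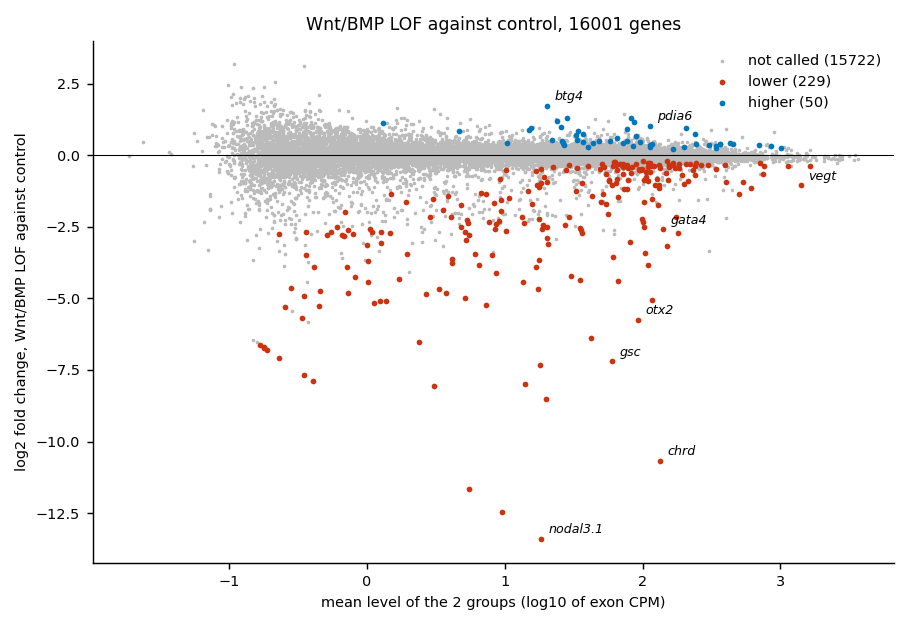
Log2 fold change of Wnt/BMP LOF against control (vertical axis) by mean level over the 6 libraries (horizontal axis, log10 CPM) for the 16001 genes tested, with 229 genes called lower in red, 50 called higher in blue and 15722 not called in grey. The falls reach much further from 0 than the rises, and the fitted values of genes without a count in Wnt/BMP LOF depend on the prior count of the fit.

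The transcript that the MO targets was measured in every library first. For ctnnb1 (Xetro.F01190), which encodes β-catenin, the levels were 2266, 2339 and 2459 CPM in Wnt/BMP LOF and 3030.0, 2393 and 2341 CPM in the control. The groups overlapped, with a log2 fold change of -0.14 (SE 0.11, edgeR adjusted p = 1.00). The MO blocks translation, so the level of this transcript does not check the labels.

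Among the early dorsal genes that β-catenin turns on, 4 of 5 were called lower. Without replicate 2 none was called, while the median log2 fold change of the list was still -8.22. No read was counted for nodal3.1 (Xetro.N00176), a Nodal-related ligand of the early organizer, in any Wnt/BMP LOF library, while the control held 21.3, 34.0 and 55.0 CPM. Against a floor of 3 counts over the group, or 0.0285 CPM, nodal3.1 was at least 1292-fold lower (edgeR adjusted p = 0.000164). The homeobox gene sia1 (Xetro.K00673), a direct β-catenin target that activates goosecoid, was likewise without a count in Wnt/BMP LOF and at 8.25, 7.34 and 17.7 CPM in the control, which makes it at least 389-fold lower (adjusted p = 0.00191). Its neighbour sia2 (Xetro.K00672) was also without a count, at only 0.163, 0.394 and 1.88 CPM in the control, at least 28.5-fold lower (adjusted p = 0.0116). nodal5, an early vegetal Nodal ligand, stood at 0.0257, 0.184 and 0.0593 CPM against 1.08, 2.24 and 2.51 CPM, with a log2 fold change of -4.42 (SE 1.13, adjusted p = 0.0654). nodal6, which is activated at the same time, did not pass the test, with 0.641, 4.69 and 1.57 CPM against 2.35, 3.50 and 4.44 CPM and overlapping groups. The list had a median log2 fold change of -7.90 as fitted and of -4.83 with genes without a count at their bound. The siamois and nodal genes are close paralogs, so reads may have been shared among copies. sia2 lost its call without replicate 1, without replicate 2 and without replicate 3, and kept it when single libraries were left out. The call of nodal5 was lost in each of the 9 settings that left out libraries.

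Among secreted proteins of the organizer 8 of 9 fell and none rose, with a median log2 fold change of -6.39. Chordin, the BMP antagonist encoded by chrd (Xetro.E00181), stood at 0.103, 0.276 and 0.119 CPM in Wnt/BMP LOF and at 330.5, 238 and 235 CPM in the control. Every Wnt/BMP LOF library was thus far below every control library, with a log2 fold change of -10.66 (SE 1.08, edgeR adjusted p = 2.04e-05). Transcripts of dkk1 (Xetro.G00317), a Wnt antagonist needed for the head, were at 0, 0.215 and 0.119 CPM against 29.5, 25.9 and 27.7 CPM (log2 fold change -7.97, SE 0.91, adjusted p = 8.06e-05). cer1, whose product Cerberus binds Nodal, BMP and Wnt ligands, was at 0, 0.184 and 0.148 CPM against 70.3, 31.0 and 18.1 CPM (log2 fold change -8.50, adjusted p = 0.00206). For frzb2, a secreted Frizzled-related protein, no read was counted in Wnt/BMP LOF against 37.8, 13.0 and 6.41 CPM, at least 669-fold lower (adjusted p = 0.000514). The BMP antagonists nog and fst, encoding Noggin and Follistatin, fell as well. nog was at 0.513, 1.66 and 1.78 CPM against 25.3, 35.7 and 39.3 CPM (log2 fold change -4.67, adjusted p = 0.000329), and fst at 0.103, 0.368 and 0.0593 CPM against 6.72, 4.82 and 3.92 CPM (-4.86, adjusted p = 0.0129). admp, a BMP-like ligand made by the organizer itself, was at 0.308, 1.04 and 1.69 CPM against 71.1, 78.5 and 103 CPM (-6.39, adjusted p = 0.000312). The exception was sfrp2, another secreted Frizzled-related protein, at 79.8, 111 and 78.2 CPM against 67.6, 76.8 and 41.3 CPM, with all 3 treated libraries above the control. It passed the test only with the replicate block (log2 fold change 0.57, edgeR adjusted p = 0.0119), where the list counted 8 lower and 1 higher. All 8 falls were called without replicate 1 too, and 3 of them without replicate 2.

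Transcription factors of the organizer ran from near-complete losses through partial ones to no loss, with 3 of 8 lower and a median of -2.46. gsc (Xetro.H01277), the homeobox gene goosecoid, was at 0, 1.13 and 1.36 CPM in Wnt/BMP LOF and 134, 115 and 111 CPM in the control (log2 fold change -7.19, SE 0.86, edgeR adjusted p = 0.000141). otx2 (Xetro.H01645), a homeobox gene of the head, was at 0.282, 4.63 and 5.37 CPM against 244, 170.0 and 134 CPM (log2 fold change -5.74, SE 0.79, adjusted p = 0.000529). hhex, a homeobox repressor of the anterior endoderm, was at 0.590, 3.40 and 3.89 CPM against 39.8, 33.1 and 26.03 CPM (-3.65, adjusted p = 0.00333). In each of these genes the treated libraries lay below every control library, which was so for 5.69% of all genes tested. Wnt/BMP LOF replicate 1 was the lowest in each by several fold. The forkhead gene foxa4 kept part of its level, at 16.8, 191 and 226 CPM against 815, 601 and 549 CPM, and lhx1, a LIM homeobox gene, was at 2.36, 25.3 and 20.9 CPM against 166, 90.1 and 68.9 CPM. Both were called lower with the block (edgeR adjusted p = 0.0680 and 0.0167, against 0.331 and 0.104 without it). Without the block, lhx1 was called in 1 of the 9 settings that left out libraries, and DESeq2 called 4 of the 8 factors lower. not, a notochord homeobox gene, was at 138, 180.3 and 169 CPM against 183, 165 and 145 CPM, and its groups overlapped (log2 fold change -0.017, SE 0.21).

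**Figure D2:**
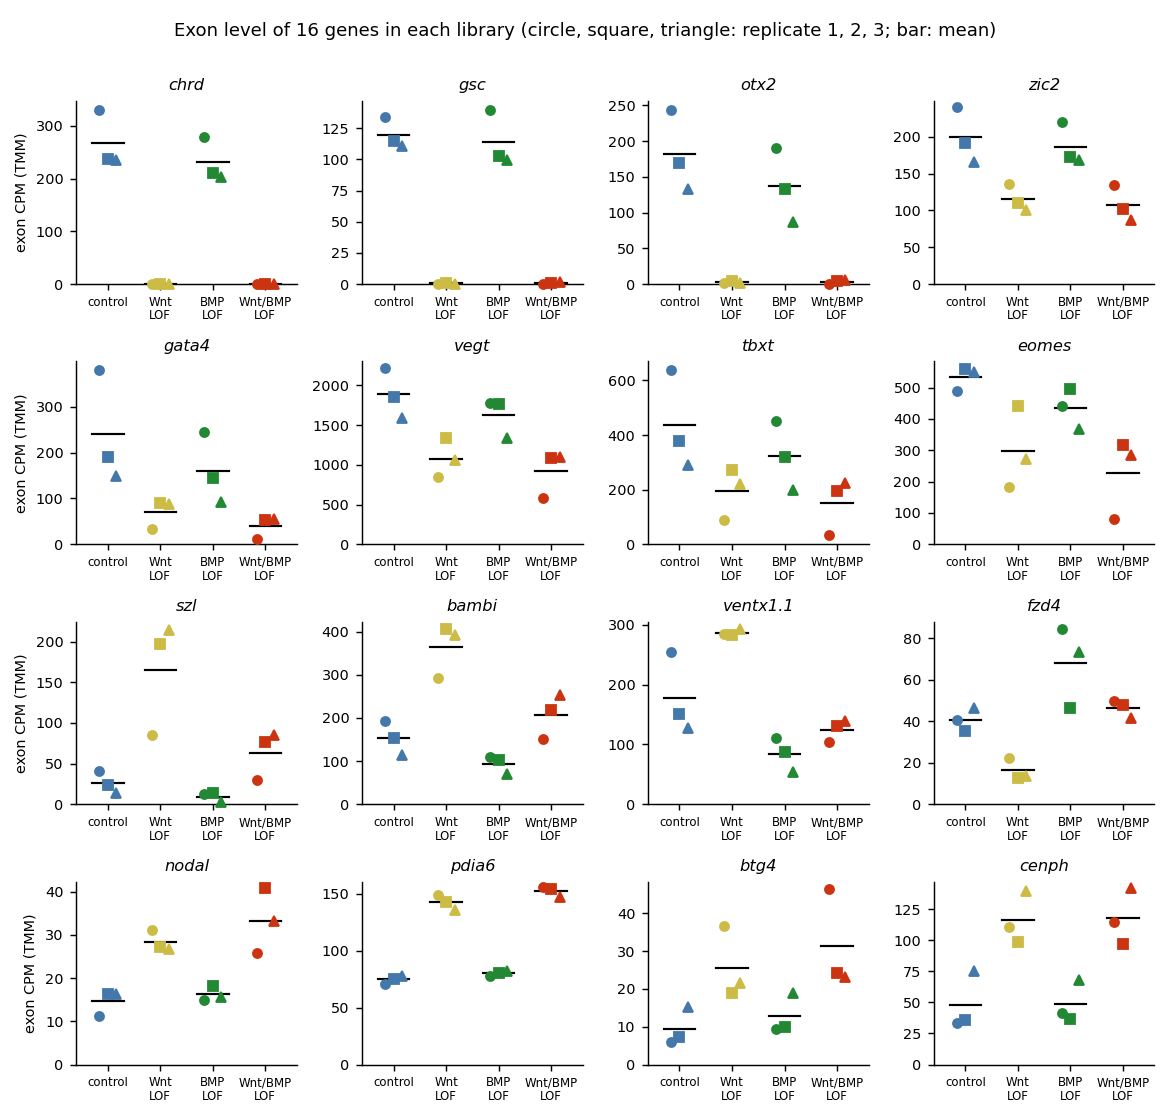
Levels in CPM (vertical axes, linear from 0) of 16 genes in control, Wnt LOF, BMP LOF and Wnt/BMP LOF, with replicates 1, 2 and 3 as circles, squares and triangles and the group mean as a bar. chrd, gsc and otx2 lie near 0 in both groups with the MO, szl and bambi are highest in Wnt LOF, and pdia6 sits between 147 and 156 CPM in Wnt/BMP LOF against 70.8 to 77.8 CPM in the control.

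Of the 15 mesoderm and endoderm transcription factors 6 fell and none rose, the median log2 fold change was -1.53, and all 15 were below the control in each of the 3 pairs. Over all 16001 genes tested, 8173, 8198 and 8102 were below it in pairs 1, 2 and 3. The 15 genes were read in the same libraries, so they do not count as replicates. vegt (Xetro.N00856), the T-box gene at the top of the endoderm programme, was at 579, 1084 and 1095 CPM in Wnt/BMP LOF and 2222, 1859.6 and 1587 CPM in the control (log2 fold change -1.04, SE 0.22, edgeR adjusted p = 0.0229). The endodermal zinc-finger gene gata4 was at 11.0, 53.5 and 55.9 CPM against 381, 192 and 149 CPM (log2 fold change -2.58, SE 0.59, adjusted p = 0.0355), and its relatives gata5 and gata6, named after their values were seen, changed by -2.36 and -2.35 on the log2 scale. mix1, a homeobox gene of the mesendoderm, was at 166, 352 and 313 CPM against 640.1, 508 and 442 CPM (-0.93, adjusted p = 0.0493), and tbxt.2, a second brachyury gene, at 0.205, 0.153 and 0.119 CPM against 7.11, 1.94 and 0.664 CPM (-4.31, adjusted p = 0.0374).

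Brachyury itself did not pass the test. tbxt (Xetro.E00956), the mesodermal T-box gene, stood at 34.7, 194 and 223 CPM in Wnt/BMP LOF and at 639.7, 378 and 288 CPM in the control. The groups did not overlap, yet replicate 1 of Wnt/BMP LOF lay far below replicates 2 and 3, and the log2 fold change of -1.53 had an SE of 0.62 (edgeR adjusted p = 0.474, and 0.180 with the replicate block). eomes (Xetro.F01268), the T-box gene eomesodermin, was at 79.7, 318 and 285 CPM against 489, 560.0 and 550.3 CPM (log2 fold change -1.23, SE 0.50, adjusted p = 0.470) and was called lower with the block (adjusted p = 0.0324). sox17a, an endodermal HMG-box gene, was at 48.0, 145 and 85.9 CPM against 339, 267 and 216 CPM and was likewise called lower with the block (-1.68, adjusted p = 0.00211). DESeq2 called 8 of the 15 genes lower, and 482 of all genes in either direction. With the block 12 of the 15 genes fell, against 5.09% of all genes tested. Without replicate 1 a single one fell and the median was -0.79. Over the 15 genes the median log2 difference was -2.98 within number 1, -0.96 within number 2 and -0.59 within number 3.

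**Figure D3:**
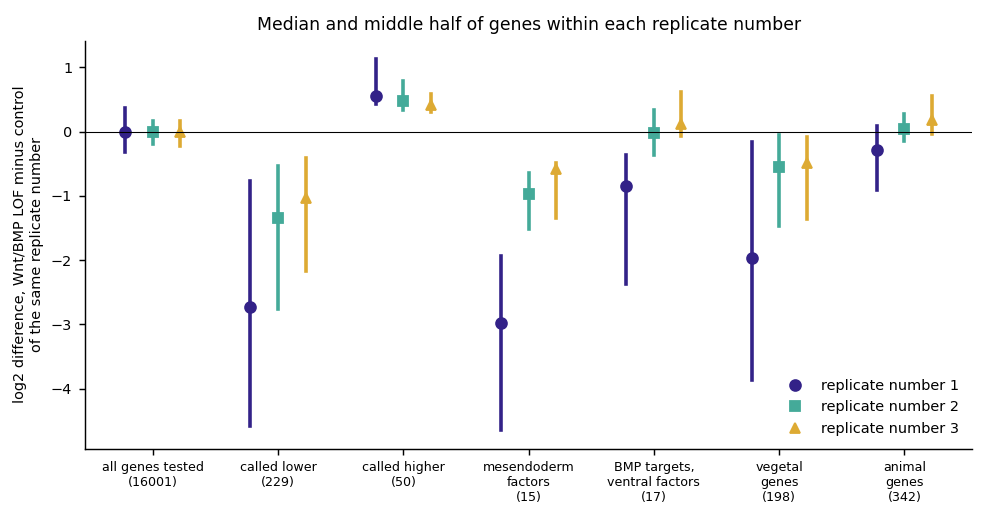
Median and interquartile range of the log2 difference between Wnt/BMP LOF and control (vertical axis) within each replicate number, for all genes tested, the genes called lower and higher, and the lists of mesendoderm factors, BMP and ventral targets, vegetal genes and animal genes. Medians of the mesendoderm list run from -2.98 in number 1 to -0.59 in number 3, while those of the genes called higher stay between 0.41 and 0.55.

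Of 11 genes of FGF ligands and feedback inhibitors, 2 fell, with a median log2 fold change of -0.58. These were the Sprouty genes spry1 and spry2, which FGF signaling induces and which restrain it. spry2 (Xetro.B01152) was at 68.0, 93.7 and 78.9 CPM against 192, 161 and 147 CPM, with no overlap between the groups (log2 fold change -1.06, SE 0.19, edgeR adjusted p = 0.00649). spry1 was at 28.4, 60.2 and 52.5 CPM against 133, 102 and 84.9 CPM (-1.18, adjusted p = 0.0412). The ligands fgf8 and fgf20 were not called, with 27.6, 50.5 and 52.3 CPM against 47.9, 39.2 and 39.4 CPM for fgf8 and 1.51, 6.31 and 6.91 CPM against 9.13, 8.37 and 8.77 CPM for fgf20. With the block 3 further feedback inhibitors were lower, among them the phosphatase gene dusp6 (-0.59, adjusted p = 0.0318). This made 5 of 11, against 5.09% of all genes tested. DESeq2, without the block, called 5 of the 11 lower as well, and the intron counts of this list are given below. Neither spry1 nor spry2 was called in exon counts without replicate 1.

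Zygotic Wnt genes and targets gave 2 falls among 11 and a median of -0.51. cdx4 (Xetro.H00596) and cdx2 (Xetro.B01816), caudal homeobox genes of the posterior body, were at 1.18, 3.22 and 3.98 against 35.03, 11.8 and 6.09 CPM (log2 fold change -2.66, edgeR adjusted p = 0.0578) and at 0.359, 0.674 and 0.653 against 17.1, 4.65 and 1.27 CPM (-3.77, adjusted p = 0.0741). sp5, a zinc-finger gene that answers to Wnt, was called only with the block (-1.31, adjusted p = 0.0925). The ligand wnt8a was at 57.6, 90.1 and 99.2 CPM against 164, 105 and 84.0 CPM, with overlapping groups (log2 fold change -0.51, SE 0.23, adjusted p = 0.626). Neither caudal gene was called without replicate 1. Of the 5 paraxial mesoderm genes tested none was called by edgeR without the block and the median was -1.56. An unadjusted p under 0.05 was found for 3 of them, against 1176 of the 16001 genes tested, and DESeq2 called 2 lower. With the block msgn1 and myf5, basic helix-loop-helix genes of presomitic mesoderm and muscle, were lower, as were 5.09% of all genes tested. myf5 was at 0.128, 0.429 and 0.297 CPM against 3.52, 2.09 and 0.577 CPM.

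Genes of gastrulation movements gave 4 falls among 20 and a median of -0.58. efnb2 (Xetro.B01645), a ligand of Eph receptors that keeps tissues apart, was at 16.9, 99.4 and 77.7 CPM in Wnt/BMP LOF and 355, 266 and 239 CPM in the control (log2 fold change -2.15, SE 0.53, edgeR adjusted p = 0.0530). ror2, a receptor of non-canonical Wnt ligands, was at 5.03, 13.0 and 10.7 CPM against 110.5, 57.7 and 20.7 CPM (-2.72, adjusted p = 0.0527). The other falls were mmp14, a membrane metalloprotease, and fn1, which encodes fibronectin and changed by only -0.29 on the log2 scale (625, 623 and 682 CPM against 826, 782 and 752 CPM, adjusted p = 0.0880). pcdh8.2, a protocadherin of the involuting mesoderm, was at 3.002, 80.2 and 78.9 CPM against 705, 521 and 418 CPM. It was just short of the threshold (adjusted p = 0.114) and was called with the block (adjusted p = 0.0180), where the list had 9 falls and 2 rises. Over all genes tested the block gave 5.09% falls and 2.5% rises. Without replicate 1 the list had a single fall.

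Early neural and pluripotency genes gave 4 falls among 18 and a median of -0.64. zic2 (Xetro.B01120), a zinc-finger gene of early neural ectoderm, was at 135, 102 and 87.2 CPM against 241, 191 and 166 CPM (log2 fold change -0.88, edgeR adjusted p = 0.0191), and zic1 at 119, 103 and 61.7 CPM against 189.5, 161 and 127 CPM was called only with the block (-0.78, adjusted p = 0.0317). irx3, an Iroquois homeobox gene, and foxd3, a forkhead repressor, fell too, with log2 fold changes of -4.42 (adjusted p = 0.00903) and -2.94 (adjusted p = 0.0827). foxd3 was at 0.616, 1.69 and 1.33 CPM against 15.1, 9.11 and 3.78 CPM, and its call was lost in 7 of the 9 settings that left out libraries. sox3, an HMG-box gene of neural-competent cells, was at 241, 211 and 145 CPM against 165, 182 and 163 CPM, with overlapping groups. zeb2 (Xetro.I00194), a zinc-finger homeobox repressor that is in no list, was at 0.718, 1.41 and 1.81 CPM against 25.0, 12.4 and 6.78 CPM (-3.49, adjusted p = 0.00304).

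**Figure D4:**
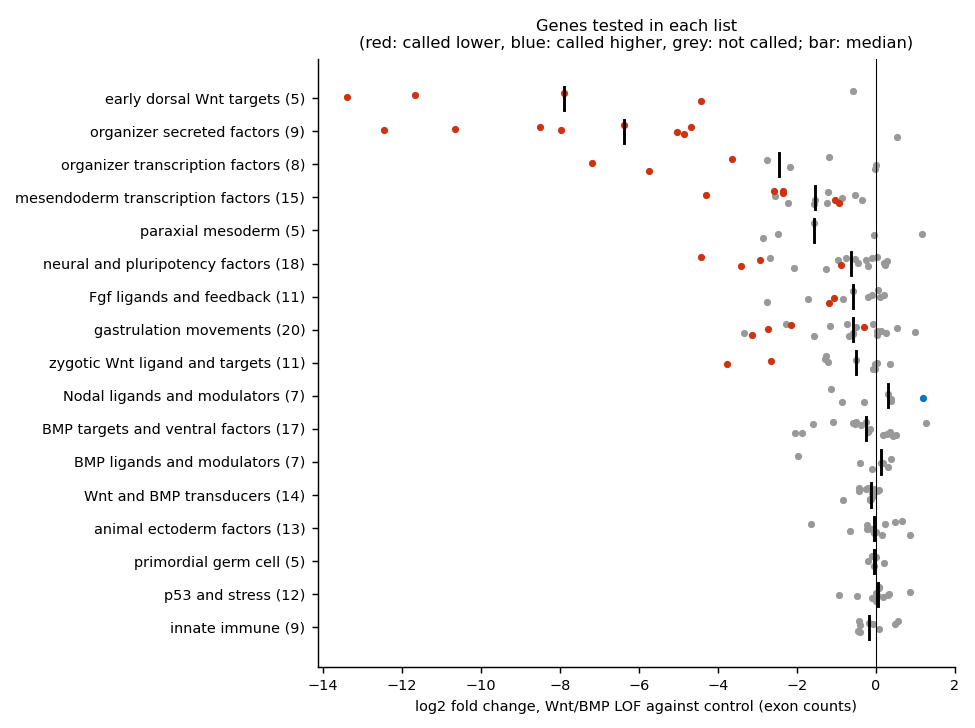
Log2 fold change of Wnt/BMP LOF against control (horizontal axis) for the tested members of 17 gene lists, 1 point a gene, with the median of each list as a bar. The lists of the organizer and early dorsal genes lie furthest to the left, and the BMP and ventral targets lie on both sides of 0 around a median of -0.26.

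None of the 17 BMP and ventral targets passed the test of edgeR without the block against the control, although the embryos were in BMP inhibitor. Their median log2 fold change was -0.26. An unadjusted p under 0.05 was found for 4 of them, against 1176 of the 16001 genes tested, and DESeq2 called 2 lower and none higher. szl (Xetro.C01869), the secreted feedback inhibitor Sizzled, stood at 29.5, 76.0 and 85.2 CPM in Wnt/BMP LOF and at 41.5, 23.3 and 14.3 CPM in the control, and the groups overlapped (log2 fold change 1.27, SE 0.61, edgeR adjusted p = 0.694). bambi, a decoy receptor that BMP induces, was at 151, 219.6 and 252 CPM against 193, 154 and 113 CPM, again with overlap. The homeobox repressor ventx1.1 (Xetro.G00466) was at 104, 131 and 139 CPM against 254, 151 and 127.9 CPM (log2 fold change -0.51, SE 0.25, adjusted p = 0.690). gata2 (Xetro.D02243), a zinc-finger gene of ventral mesoderm and epidermis, was at 8.37, 49.8 and 43.2 CPM against 122, 112 and 73.7 CPM. All 3 treated libraries lay below the control, but their spread was wide (log2 fold change -1.60, SE 0.81, adjusted p = 0.751). id2 (Xetro.E00391), an inhibitor of helix-loop-helix factors, was at 137, 86.0 and 69.5 CPM against 54.7, 72.9 and 76.2 CPM (log2 fold change 0.52, SE 0.23, adjusted p = 0.585), with overlap. With the replicate block 2 fell, ventx1.2 (-1.06, adjusted p = 0.0778) and msx2 (-2.01, adjusted p = 0.0326), and ventx3.1 rose (0.27, adjusted p = 0.0873). The block called 5.09% of all genes tested lower and 2.5% higher. Within replicate numbers 1, 2 and 3 the median of the list was -0.85, -0.03 and 0.12, so its sign depended on the library pair.

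Side by side, the 4 groups show where these targets stood in each single loss. For szl the levels were 84.7, 197 and 214 CPM in Wnt LOF and 12.2, 13.8 and 2.76 CPM in BMP LOF, with Wnt/BMP LOF between the means of both. bambi was at 293, 407 and 393 CPM in Wnt LOF and 109, 102 and 71.0 CPM in BMP LOF, and ventx1.1 at 284, 282 and 293 and 110.0, 86.8 and 53.7 CPM. Over the 17 targets the median level was 142% of control in Wnt LOF, 61.0% in BMP LOF and 83.7% in Wnt/BMP LOF, and 11 of the 17 genes lay between both single losses. All of these percentages share the same control libraries.

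Direct comparison with BMP LOF gave the effect of adding the MO to embryos in the BMP inhibitor. It called 149 genes (0.931%), 113 lower (0.706%) and 36 higher (0.225%). Among the BMP and ventral targets 4 of 17 were higher and none lower, with a median log2 fold change of 0.51 against 0.0010 over all genes. Without replicate 1 there were 2 such calls, and without replicate 2 or replicate 3 none. szl differed by 2.73 (SE 0.65, edgeR adjusted p = 0.0673), bambi by 1.14 (adjusted p = 0.0288), ventx3.1 by 0.92 (adjusted p = 0.0415) and id3 by 0.80 (adjusted p = 0.0653). tbx3, a T-box repressor, was at 4.46, 10.3 and 8.04 CPM in Wnt/BMP LOF and 1.50, 3.64 and 1.35 CPM in BMP LOF (1.82, adjusted p = 0.0794), and nefl, a neurofilament gene, at 21.3, 22.9 and 14.4 and 10.2, 10.5 and 7.77 CPM (1.05, adjusted p = 0.0182). Of the 9 settings that left out libraries, 8 lost the call of szl, 7 that of tbx3, 6 those of id3 and ventx3.1, 5 that of bambi and 3 that of nefl. In all of these genes each Wnt/BMP LOF library lay above each BMP LOF library, which was so for all 36 genes called higher and for 2.69% of all genes tested. The early dorsal list (4 of 5) and the secreted organizer list (8 of 9) were lower, led by nodal3.1, sia1 and frzb2, which had no count in Wnt/BMP LOF, and by chrd (-10.45, adjusted p = 2.61e-05) and cer1 (-7.82, adjusted p = 0.00491). Without replicates 1, 2 and 3 these lists had 2, 0 and 3 and 6, 2 and 6 falls. None of the 15 mesendoderm factors was called, with a median of -0.95. For 7 of them the unadjusted p was under 0.05, against 735 of all 16001 genes, and 4 were lower with the block and 4 with DESeq2. Without replicate 2 only 9 genes in all were called (8 lower and 1 higher), without replicate 3 there were 79, and leaving out single libraries gave 69 (without BMP LOF replicate 1) to 133 (without BMP LOF replicate 3). With the block 582 genes were called (3.64%), 374 lower (2.34%) and 208 higher (1.3%).

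Against Wnt LOF, which measures what the BMP inhibitor adds to the MO, a single gene of 16001 was called (0.00625%), among 271 genes with an unadjusted p under 0.05. This was fzd4 (Xetro.B02193), a Wnt receptor of the Frizzled family, at 49.6, 47.7 and 41.4 CPM in Wnt/BMP LOF and 22.3, 12.9 and 13.8 CPM in Wnt LOF. The groups were well apart (log2 fold change 1.50, SE 0.22, edgeR adjusted p = 0.0317), but the call was lost in 7 of the 9 settings that left out libraries. Against the control, at 40.5, 35.4 and 46.2 CPM, fzd4 overlapped with Wnt/BMP LOF. With the replicate block 20 genes were called (0.125%), of which 13 were lower (0.0812%) and 7 higher (0.0437%), and DESeq2 called 15. A fit of the compared groups alone called no gene, and the same with the block called 397, so the count depended strongly on the fit. The genes named next were called with the block over all 24 libraries and were picked after their values were seen. Lower were, among others, ventx1.1 (-1.19, edgeR adjusted p = 0.0545), ventx1.2 (-1.67, adjusted p = 0.0812), ventx3.1 (-0.53, adjusted p = 0.0277) and grhl1, an epidermal grainyhead gene (-0.66, adjusted p = 0.0545). Higher were sox11 (0.79, adjusted p = 0.00209), zic1 (1.13, adjusted p = 0.0545), sfrp2 (0.67, adjusted p = 0.0649), fzd4, the zinc-finger gene zic4 (1.69, adjusted p = 0.0215), the LIM homeobox gene lhx5 (0.74, adjusted p = 0.0287) and the adaptor gene nedd9 (0.48, adjusted p = 0.0718). In the fits of all 24 libraries none of the 15 mesendoderm factors passed a test against Wnt LOF, by edgeR with or without the block or by DESeq2. An unadjusted p under 0.05 was found for 1 of these factors. All 15 had negative log2 fold changes with a median of -0.42, as did 8071 of all 16001 genes, whose median was -0.0012.

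Whether the double loss differed from the 2 single losses multiplied together was tested for every gene by the interaction term. No gene was called (0%) by edgeR, with or without the replicate block, nor by DESeq2. Unadjusted p-values under 0.05 were found for 78 genes with edgeR, 369 with the block and 86 with DESeq2. The 78 genes are 0.487% of those tested, while evenly spread p-values would put a share of 0.05 under that limit. The test was thus conservative, and the lack of a call does not show that the double loss equals the product. For tbxt the product of the 2 single losses was 33.3% of control and the level in Wnt/BMP LOF 34.6%, with an interaction of 0.054 on the log2 scale (SE 0.86). eomes gave 45.7% and 42.7% (interaction -0.10, SE 0.69), and vegt 49.2% and 48.7%. The precision was limited. With the block, where the median SE over all genes fell from 0.33 to 0.20, the 95% interval of the interaction ran from -1.59 to 1.73 for tbxt, from -1.05 to 0.86 for eomes and from -0.52 to 0.52 for vegt. Departures of that size in either direction were not detectable in these libraries. Among targets of BMP, szl gave 229% and 241%, bambi 145% and 135%, and ventx1.1 75.9% and 70.1%. For fzd4 the values were further apart, 67.1% and 113%, and the interval with the block was 0.37 to 1.27, with an edgeR adjusted p of 1.00.

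Described by lists and group means, the mesendoderm factors stood below the control in both single losses and lower again in the double loss. The order as a whole was not tested. Of its last steps in the fits of all 24 libraries, none of the 15 genes was called against Wnt LOF. Against BMP LOF none was called in the main fit, 4 with the block and 4 with DESeq2. Their median level was 46.7% of control in Wnt LOF, 72.9% in BMP LOF and 34.6% in Wnt/BMP LOF, against a median product of 33.3%. All 15 genes were lower in the double loss than in either single loss by group means, and 9 of 15 were below their product. For the 13 animal ectoderm genes the medians were 145%, 82.3% and 96.4%, against a median product of 113%. By group means 10 of the 13 lay between the single losses, and 10 of the 13 were below their product. In tfap2a, an epidermal transcription factor, the levels were 256, 368 and 422 CPM in Wnt/BMP LOF, 476, 551 and 542 CPM in Wnt LOF, 289, 274 and 151 CPM in BMP LOF and 410.5, 311 and 220.3 CPM in the control. Wnt LOF was the highest of its 4 groups in every replicate number.

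**Figure D5:**
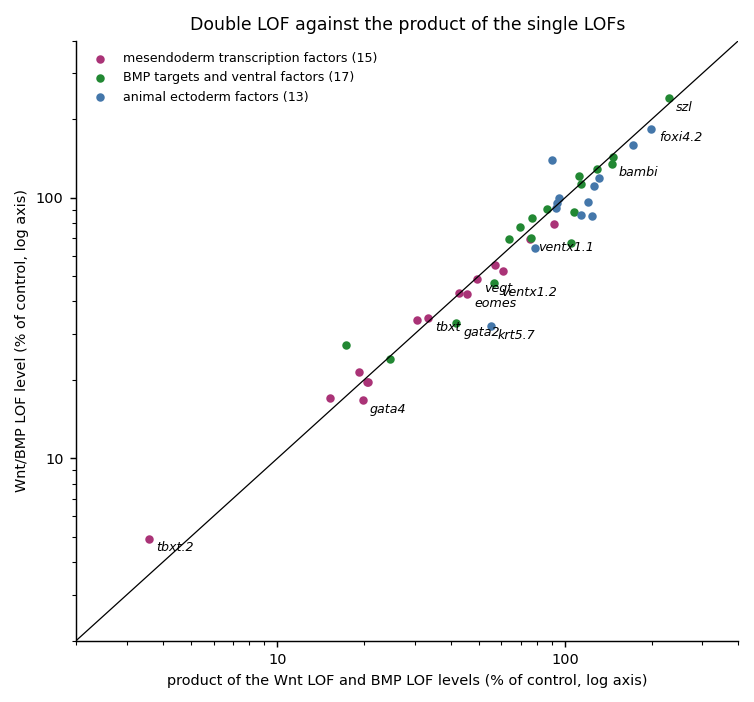
Level in Wnt/BMP LOF (vertical axis, percent of control, log scale) against the product of the levels in Wnt LOF and BMP LOF (horizontal axis, percent of control, log scale) for the mesendoderm factors, the BMP and ventral targets and the animal ectoderm genes, with a line where both are equal. Below the line lie 10 of the 13 animal ectoderm genes, 9 of the 15 mesendoderm factors and 9 of the 17 BMP and ventral targets. tbxt is at 33.3% and 34.6% and szl at 229% and 241%, and both axes share the same control libraries.

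Nodal genes outside the early dorsal set went both ways. nodal (Xetro.G00821), a ligand of the Nodal family, rose from 11.2, 16.3 and 16.3 CPM in the control to 25.7, 40.8 and 33.1 CPM in Wnt/BMP LOF (log2 fold change 1.18, SE 0.22, edgeR adjusted p = 0.00880), and it was the only called gene of 7 in its list. Its levels were 31.2, 27.3 and 26.6 CPM in Wnt LOF and 14.9, 18.2 and 15.7 CPM in BMP LOF. With the block, nodal1 and the Nodal antagonist lefty were called lower (-1.35, adjusted p = 0.0261, and -0.98, adjusted p = 0.0779), and the co-receptor gene tdgf1 higher (0.37, adjusted p = 0.0210).

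pdia6 (Xetro.E00367), a disulfide isomerase of the endoplasmic reticulum, was at 156, 154 and 147 CPM in Wnt/BMP LOF and 70.8, 75.4 and 77.8 CPM in the control. Its replicates lay close together (log2 fold change 1.03, SE 0.066, edgeR adjusted p = 6.92e-08), and it was called in every setting that left out libraries, while the calls of btg4, cenph and nefl were lost in 5, 6 and 5 of the 9 settings. btg4, which helps to clear maternal RNA, had the largest fitted rise among the named genes, at 46.3, 24.2 and 23.2 CPM against 5.90, 7.16 and 15.1 CPM (1.73, SE 0.44, adjusted p = 0.0610). cenph, a kinetochore protein, was at 115, 97.1 and 142 CPM against 33.2, 36.1 and 75.1 CPM (1.29, adjusted p = 0.0613), and fancd2, a DNA repair gene, at 30.6, 37.1 and 34.4 CPM against 13.1, 19.6 and 18.5 CPM (1.00, adjusted p = 0.00447). Beyond these, hn1, plod2, march7, pld3 and nefl rose, by 0.88 to 1.16 on the log2 scale. In all of them the treated libraries lay above every control library, as they did in all 50 genes called higher and in 2.92% of all genes tested. The separation thus goes with the call and adds nothing to it. In Wnt LOF pdia6 was at 149, 143 and 136 CPM and cenph at 111, 98.5 and 139.9 CPM, and in BMP LOF at 77.9, 80.0 and 82.0 CPM and 41.4, 36.8 and 68.2 CPM.

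Of the 14 transducers of Wnt and BMP signals tested none passed the test of edgeR without the block or of DESeq2 (median log2 fold change -0.13). Of these, 2 had an unadjusted p under 0.05, against 1176 of all 16001 genes. With the block acvr1, a BMP type I receptor, axin1, a scaffold of the β-catenin destruction complex, and lrp6, a Wnt co-receptor, were lower (-0.42, -0.15 and -0.26). These are 3 of 14, against 5.09% of all genes tested. smad1, the BMP effector, was at 791, 755 and 739 CPM against 733, 732 and 683 CPM (log2 fold change 0.088). None of the 7 BMP ligands and modulators was called by edgeR without the block or by DESeq2. An unadjusted p under 0.05 was found for 2 of them (1176 of 16001 over all genes). bmp4 was at 95.1, 124 and 112 CPM against 113, 85.9 and 67.4 CPM, while bmp7.2 was higher with the block (0.41, edgeR adjusted p = 0.00312).

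In exon counts no call was made in the lists of animal ectoderm (13 genes tested, median log2 fold change -0.05), p53 targets (12, 0.05), innate immune genes (9, -0.17) or primordial germ cells (5, -0.04), with edgeR, with or without the block, or with DESeq2. Of these genes 1, in the ectoderm list, had an unadjusted p under 0.05. foxi4.2, an ectodermal forkhead gene, was at 229, 429 and 565 CPM against 292, 238 and 136 CPM, and the keratin gene krt18 at 405, 356 and 359 CPM against 392, 384 and 343 CPM, both with overlap. In intron counts, taken up below, the block gave 1 higher gene in the p53 list and 1 lower gene in each of the ectoderm and germ cell lists. The p53 and immune lists mark general reactions to an injected MO, but whether the injection caused such a reaction was not tested. The p53 target mdm2 was at 75.4, 149.7 and 167 CPM against 170.1, 159.9 and 60.2 CPM, and the summed p53 list at 1648 to 2147 against 1543 to 2377 CPM. Among 76 ribosomal protein genes 1, rpl18, was called lower (1.32%, against 1.43% over all genes tested).

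The regional lists hold zygotic genes with at least a 3-fold difference between dissected parts of the embryo in another study, and 1845 genes of that table could be read. Of 53 dorsal genes 22 fell (41.5%) and 1 rose (median log2 fold change -1.97), and of 198 vegetal genes 45 fell (22.7%) and 1 rose (median -0.88). The lists overlap, since 30 of the 53 dorsal genes are also vegetal. Among the 168 vegetal genes not in the dorsal list 27 fell (16.1%), with a median of -0.66. Of 342 animal genes 6 fell (1.75%) and 4 rose (1.17%), with a median of -0.01, and of 23 ventral genes 1 fell, cdx2 (4.35%, median -0.22). Of 1286 genes without a regional difference 16 fell (1.24%) and 3 rose (0.233%), with a median of -0.02. Over all genes tested 1.43% fell and 0.312% rose. Without replicate 1 the dorsal list had 17 falls and the vegetal list 25, and without replicate 2, where few genes in all were called, both had 4.

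The study also sorted genes by the stage at which RNA polymerase II first covers them, in 4 sets. Of 26 genes of the earliest set, covered from the 32-cell stage, 4 fell (15.4%), and of 116 in the next 6 fell (5.17%) and 2 rose (1.72%). Of 872 in the one after it 43 fell (4.93%) and 8 rose (0.917%), and of 1816 covered from the MBT 82 fell (4.52%) and 11 rose (0.606%). Over all genes tested 1.43% fell and 0.312% rose. The medians of the 4 sets were 0.17, 0.09, -0.06 and -0.07. The earliest set includes sia2, nodal3.1 and nodal5, which fell, and nodal6, which was not called, all described above. Without replicate 1 the falls numbered 1, 5, 24 and 43, and without replicate 2 they numbered 0, 0, 3 and 2.

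Only 34 of the 279 called genes belong to the lists named by function, which covered 186 tested genes. The other genes named in what follows were chosen after their values were seen. fzd8, a Frizzled receptor, was at 1.08, 4.199 and 4.42 CPM in Wnt/BMP LOF and 75.2, 60.0 and 64.5 CPM in the control (log2 fold change -4.37, SE 0.56, edgeR adjusted p = 0.000289), and fzd7, another of the family, at 263, 479 and 402 CPM against 1104, 780.5 and 629.5 CPM (-1.14, adjusted p = 0.0471). rspo2, a secreted Wnt enhancer, was at 0.334, 0.306 and 0.326 CPM against 7.04, 2.19 and 1.47 CPM (-3.45, adjusted p = 0.0115). epha4, an Eph receptor, was at 13.0, 65.6 and 65.1 CPM against 439, 299 and 205 CPM (-2.71, adjusted p = 0.0257), and pdgfra, a PDGF receptor, at 4.18, 14.9 and 11.5 CPM against 76.5, 57.8 and 45.5 CPM (-2.56, adjusted p = 0.0126). Outside the lists, pkdcc.2 and sla were also among the 10 largest falls. pkdcc.2 (Xetro.E01531), a secreted kinase gene, was at 0.103, 0.460 and 0.119 CPM against 49.6, 34.6 and 23.8 CPM (-7.31, adjusted p = 3.10e-06), and sla, a Src-like adaptor, was left with 2 counts against 622 and was 320-fold lower (95% counting interval 89 to 2641, adjusted p = 2.34e-05).

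Intron counts follow unspliced transcripts. Of 11499 genes tested 298 were called (2.59%), 273 lower (2.37%) and 25 higher (0.217%), and with the replicate block 667 (5.8%), 530 lower (4.61%) and 137 higher (1.19%). Levels are again CPM, of intron counts. No count was found in introns of chrd in Wnt/BMP LOF, against 288, 267 and 285 CPM in the control, which makes them at least 410.2-fold lower against a floor of 3 counts over the group (edgeR adjusted p = 4.76e-08). Those of pkdcc.2 were at 0.628, 0.665 and 1.54 CPM against 451, 309 and 210.0 CPM (-8.34, adjusted p = 4.47e-09), and those of efnb2 at 125, 203 and 219.9 CPM against 838, 889.8 and 946 CPM (-2.29, adjusted p = 3.76e-06). In each the treated libraries lay below the control, which was so for 7.24% of all genes tested in introns. Of the 229 genes with falling exon counts 176 could be tested in introns, of which 88 fell there too and 143 had a negative log2 fold change. The rises were seldom called in introns, though most kept their direction: 48 of the 50 could be tested, 2 were called and 36 were positive. The median log2 fold change was 0.47 among genes called higher in exons and 1.13 among those called higher in introns. For btg4 the intron log2 fold change was -0.12 and for pld3 -0.48, neither called.

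In the other direction, 167 genes were lower in introns without a call in exons, and 141 of them were negative there. The genes that follow were chosen after their values were seen. etv1, an ETS factor of the FGF pathway, had exon levels of 387, 409.8 and 376 CPM against 447, 417 and 382 CPM (log2 fold change -0.088, edgeR adjusted p = 1.00) but intron levels of 332, 388 and 378 CPM against 955, 694 and 571 CPM (-1.01, adjusted p = 0.0181). il17rd, a membrane inhibitor of FGF signaling, was at 138, 105 and 138 against 145, 140.3 and 152 CPM in exons (-0.20) and at 9.42, 11.3 and 12.3 against 42.1, 24.9 and 19.0 CPM in introns (-1.37, adjusted p = 0.0929). tcf7, a transcription factor partner of β-catenin, differed in the same way, with 0.35 in exons and -2.31 in introns (adjusted p = 0.0166). Of the FGF ligands and feedback inhibitors, 10 could be tested in introns and 6 fell there (60%, against 2.37% over all genes). Their median log2 fold change was -1.19, and without replicate 1 or without replicate 2 only 1 fell. The difference between exon and intron changes was not tested. Intron counts were low, at most 1750926 in these 6 libraries. Without replicate 1 the intron calls dropped to 81 lower and 6 higher, and without replicate 2 to 71 and 2. Leaving out Wnt/BMP LOF replicate 1, Wnt/BMP LOF replicate 2 or control replicate 1 alone gave 126, 172 and 121 calls.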

How the data were processed

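The authors sequenced poly(A) RNA (paired-end), called bases with CASAVA 1.8.2, aligned with STAR 2.5.3a guided by revised gene models and sorted with SAMtools 1.3.1. Exon and intron reads were counted per gene with VERSE in featureCounts mode, without strand, and the deposited counts are not normalized, so overlapping or antisense genes and close paralogs may share reads. Exon counts came to 27710453 to 45443446 per library in the 24 libraries at stage 9+. None of the 6 libraries compared was a copy of another.

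Counts were analysed in R 4.3.3 with edgeR 4.0.16: TMM scaling, filterByExpr on the group, and 1 quasi-likelihood fit of the 8 groups over 24 libraries (16001 genes of 28148 in exons, 11499 of 23701 in introns). SEs are the log2 fold change divided by the root of F. The authors used DESeq2, and DESeq2 1.42.0 was an alternative here, as were RLE scaling, no filter, the compared groups alone, the replicate block and leaving out libraries. List counts without each replicate number were added after seeing the data. The scripts were tested on simulated data. The labels give the replicate numbers. Same-numbered libraries deviated together across genes (r = 0.56 to 0.70 in 3 pairs of Wnt/BMP LOF and control), so the numbers were taken to pair the libraries. In 6 pairs of unlike number r was -0.40 to -0.19. Deviations were taken from the mean of each group, so these negative values follow from the positive ones and add no evidence. The main fit held the group alone, as in the study, and the pairing entered only the pair differences and the fits with the block. What same-numbered libraries share is not stated, so p-values measure the spread between these samples.

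Symbols were found for 12828 IDs, and the series' coordinates were not used here. Named are ctnnb1, and tbxt and eomes, which the study names for the joint loss of Wnt and BMP. Also picked with the study in view were sia2, nodal3.1, chrd, otx2, id2 and szl, which it names under Wnt LOF. fgf20, named there under Nodal LOF, foxd3, zeb2, gata2 and ventx1.1 complete this group. The 10 largest falls and rises are named among genes called with a symbol, at least 50 normalized counts and the same direction in 3 pairs. Up to 5 members a list are named too, and up to 5 largest falls and rises in the other comparisons. Any further genes are marked. The members and lists were chosen with earlier results of these data known. An item that the naming rule covers is not reported here.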

Additional observations from a re-analysis of the deposited data

How the results depend on the processing

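Calls against the control numbered 279 in exons and 298 in introns. With DESeq2 the exon count was 482 (377 lower, 105 higher), of which 278 were shared, and with the replicate block 1214. A fit of the compared groups alone gave 20, and the same with the block 6. In introns an adjusted p of at most 0.05 gave 195, the block 667, the compared groups alone 110, and these with the block 134. Against Wnt LOF the count of 1 became 15 with DESeq2, 20 with the block, 0 with the compared groups alone and 397 with these and the block. Against BMP LOF the count of 149 became 244, 582, 20 and 11 in that order. RLE scaling and no filter kept these counts within 1.5 times. The interaction gave 0 calls in every setting. Leaving out libraries gave 11 to 341 calls in exons, 73 to 365 in introns, 0 to 1 against Wnt LOF, 9 to 133 against BMP LOF and 0 for the interaction. Of the named effects, 93 kept their side of the threshold with the replicate block, 28 passed it only with the block and no other call changed. With the compared groups alone 43 named effects fell short of it, and with these and the block 53 did while 9 passed it anew.

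Signs in introns were compared for the named effects followed through every setting. They turned for ctnnb1 (0.38), id2 (-0.71), btg4 (-0.12), march7 (-0.21), pld3 (-0.48), not (0.48), grhl3 (0.17) and lrp6 (0.14), none of them called there. Outside that set, tcf7 turned with a call in introns, and fgf8, arpc2 and eif2b3, among others, turned without one. Leaving out libraries turned the sign of uncalled effects: ctnnb1 ran from -0.23 to 0.028, not from -0.12 to 0.18, ventx2.1 from -0.46 to 0.063, wnt8a from -0.85 to 0.015 and grhl3 from -0.60 to 0.16. So did the interactions of tbxt (-0.35 to 0.53), eomes (-0.48 to 0.31), gata2 (-0.75 to 0.12), vegt (-0.18 to 0.23), gata4 (-0.75 to 0.21), szl (-0.41 to 0.51), ventx1.1 (-0.46 to 0.14) and chrd (-0.88 to 0.54). The calls of chrd, sla, dkk1, pkdcc.2, nog and pdia6 against the control were made in every setting that left out libraries. The causes of these shifts were not tested. With 3 libraries a group, of which replicate 1 differs most, moderate changes such as that of tbxt are not resolved at this depth of replication.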

Other observations

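Some of the steadiest changes concerned genes outside every list, chosen here after their values were seen. arpc2, a subunit of the actin-nucleating Arp2/3 complex, was at 20.3, 29.1 and 26.8 CPM of exon counts in Wnt/BMP LOF and 87.3, 82.1 and 81.5 CPM in the control (log2 fold change -1.72, SE 0.14, edgeR adjusted p = 3.10e-06). The replicates of each group lay close together, and in Wnt LOF arpc2 was at 21.6, 26.7 and 25.2 CPM and in BMP LOF at 81.2, 83.2 and 77.5 CPM. Its intron counts changed by 0.33 on the log2 scale (adjusted p = 0.846). eif2b3, a subunit of a translation initiation factor, was at 8.06, 11.1 and 11.0 CPM against 64.6, 63.8 and 57.0 CPM (-2.62, adjusted p = 8.00e-06), with 6.66, 11.6 and 9.24 CPM in Wnt LOF, 60.1, 63.3 and 53.5 CPM in BMP LOF and an intron change of 0.12 (adjusted p = 0.977). prcc was at 121, 142 and 135 CPM against 294, 262 and 242 CPM (-1.01, adjusted p = 3.10e-06), with 129, 151 and 142 CPM in Wnt LOF, 269.8, 251 and 229 CPM in BMP LOF and an intron change of -0.11 (adjusted p = 0.972). These genes and pdia6, which rose, were alike in that both groups with the MO stood apart from both groups without it, while introns gave no call. Whether the exon and intron changes differ, and what the injection contributes, was not tested.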
